A study of Saccharomyces cerevisiae with 41 samples.

Results

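The AAD genes of budding yeast are a small family of putative aryl-alcohol dehydrogenases, and 5 of them, AAD3, AAD4, AAD6, AAD10 and AAD14, were followed across a UV time course in 6 strains. Every probe set annotated to 1 of these symbols was kept, which gave 8 of the 5498 probe sets matched to a budding yeast gene. A probe set is a group of short array probes read as 1 value. The members were chosen by their log2 levels in the deletion strains, which were higher than in WT, so those differences are given below as a description, with no test. The label holds unevenly: before UV, AAD10 and AAD6 stood above WT in 4 of the 5 deletion strains and AAD14 in 3, whereas AAD3 was higher in rad4Δ and lower in 3 others.

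The 41 RNA samples were each read on 1 Affymetrix Yeast 2.0 array. The labels do not say whether the times of 1 replicate came from 1 culture. The strains were mig3Δ, snf1Δ, rad23Δ, the double deletion snf1Δ rad23Δ, rad4Δ and WT, all of the YPH499 background. SNF1 encodes the yeast AMP-activated kinase that works in glucose repression, and MIG3 a DNA-binding repressor. RAD4 and RAD23 encode partners that recognise damage in nucleotide excision repair, and Rad23 also carries ubiquitylated proteins to the proteasome. Log-phase cultures in YPD at 30 °C, at an optical density of 1.0, were put briefly in water, given 100 J/m2 of UV-C or a mock treatment (the unirradiated groups), and returned to fresh YPD. The mig3Δ, snf1Δ and WT strains were sampled unirradiated and at 15, 30 and 60 min, and the rad23Δ, snf1Δ rad23Δ and rad4Δ strains unirradiated and at 30 and 60 min. Each of 20 groups held 2 arrays, described as biological replicates, and mig3Δ at 15 min held 1. No mock-treated culture was taken at the later times, so a UV response here also holds whatever the change of medium did. In a culture measured in bulk, a change in every cell and a change in some of the cells cannot be told apart.

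The AAD proteins belong to the aldo-keto reductases, enzymes that reduce aldehydes and ketones with a nicotinamide cofactor. They were named for their likeness to the aryl-alcohol dehydrogenase of the lignin-degrading fungus Phanerochaete chrysosporium, and their substrates in yeast are poorly known. AAD4 and AAD6 are known to be induced by oxidative stress through Yap1, the transcription factor of the oxidative stress response. The genes sit near chromosome ends. In the gene table of assembly R64, AAD3 (YCR107W) was the second gene from the right end of chromosome III. AAD4 (YDL243C) was gene 6 from the left end of chromosome IV, AAD6 (YFL056C) gene 11 from the left end of VI, AAD10 (YJR155W) gene 6 from the right end of X, and AAD14 (YNL331C) gene 7 from the left end of XIV. AAD4, AAD6, AAD10 and AAD14 each lay next to a gene of the THI5 family, which makes the thiamine precursor, and those neighbours were THI13, THI5, THI11 and THI12 in that order. The table lists AAD6 as a pseudogene.

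AAD10, AAD14 and AAD6 had 1 probe set each (1774749_at, 1780166_at and 1773315_at). AAD4 had 1771716_s_at and 1774511_at, and AAD3 had 1777457_s_at, 1779484_at and 1779803_x_at. The array maker's suffixes _s_at and _x_at mark probes that may also bind other transcripts, and the AAD genes are close in sequence, so values of single members are uncertain to that extent. All 8 probe sets passed the filter on dim values. Their values, log2 array signal as deposited, ran from 4.04 to 12.53 and lay above the 2.12 to 2.19 that marked each array's background. The level of 1 probe set was not set against that of another.

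**Figure D1:**
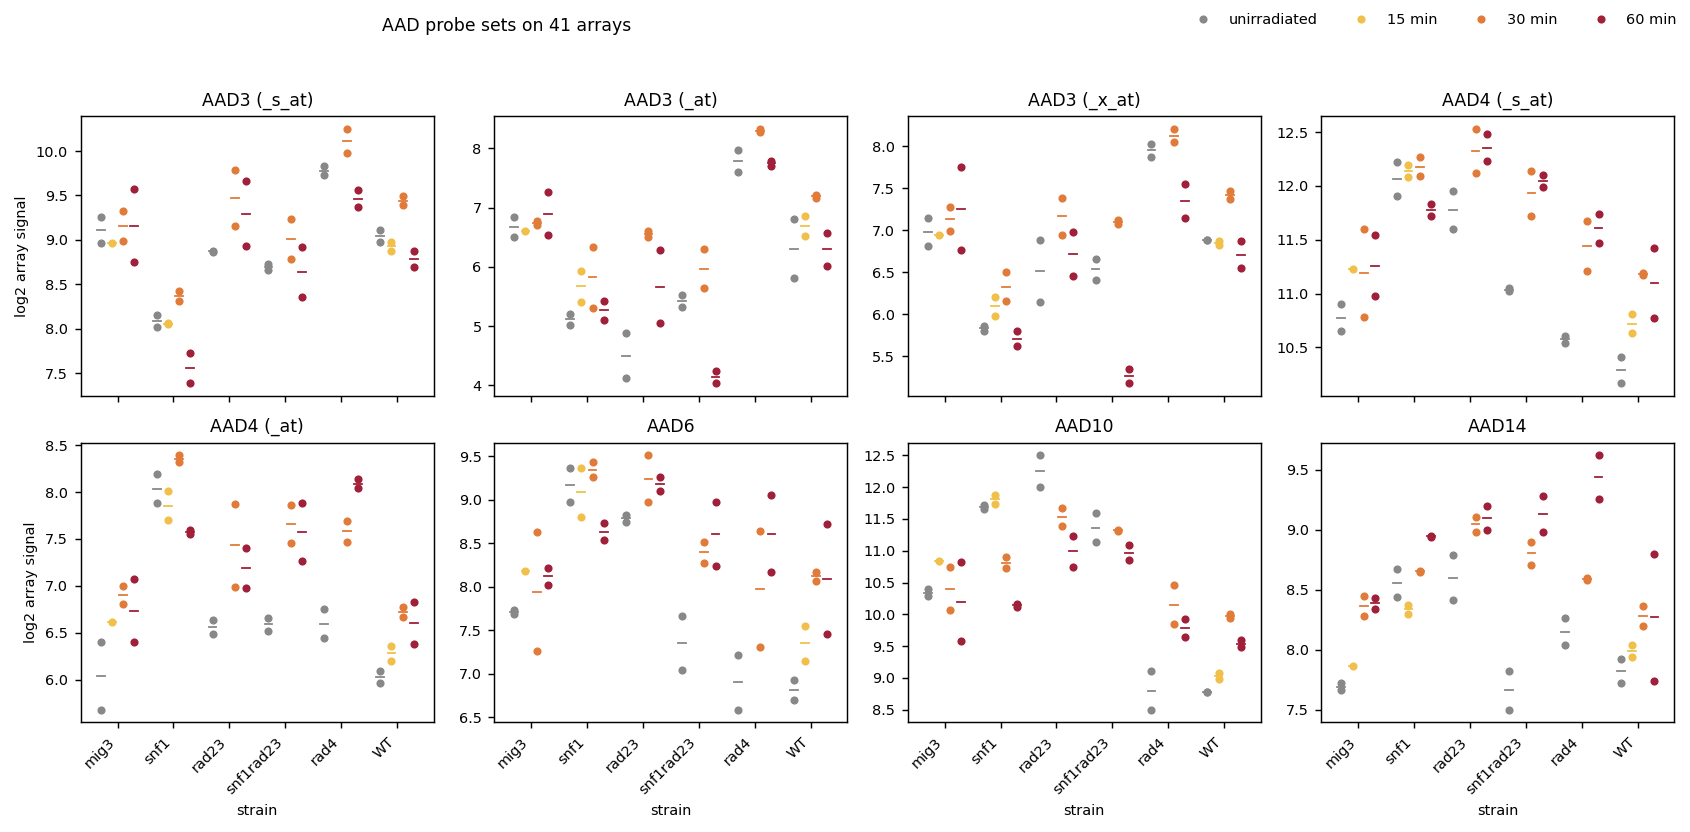
Each panel plots 1 AAD probe set as log2 array signal (vertical axis, scaled per panel) by strain (horizontal axis, names without the Δ), with points for arrays, short lines for group means and colours for the time after UV. Before UV, the grey points of AAD10 lie at 12.00 and 12.50 in rad23 and at 8.78 and 8.77 in WT, while those of AAD3 (_s_at) are highest in rad4, at 9.83 and 9.73.

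AAD10 differed most between strains before UV. It read 12.00 and 12.50 in rad23Δ cells, 11.66 and 11.72 in snf1Δ cells, 11.13 and 11.59 in snf1Δ rad23Δ cells, 10.40 and 10.28 in mig3Δ cells and 8.50 and 9.10 in rad4Δ cells, against 8.78 and 8.77 in WT cells. Every array of the rad23Δ, snf1Δ, snf1Δ rad23Δ and mig3Δ strains was above both WT arrays, and rad4Δ overlapped WT. The differences from WT were 3.48 (11.14-fold), 2.91 (7.53-fold), 2.58 (5.98-fold) and 1.57 (2.96-fold) on the log2 scale in those 4 strains, and 0.02 in rad4Δ. In the order of the 6 strains only rad4Δ and WT, the 2 lowest, overlapped.

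AAD6 read 8.97 and 9.37 in unirradiated snf1Δ cells, 8.75 and 8.83 in rad23Δ cells, 7.69 and 7.73 in mig3Δ cells, 7.04 and 7.67 in snf1Δ rad23Δ cells and 7.22 and 6.59 in rad4Δ cells, against 6.93 and 6.70 in WT cells. Only the rad4Δ arrays overlapped those of WT. The difference from WT was 2.35 (5.11-fold) in snf1Δ and 1.97 (3.92-fold) in rad23Δ, but 0.54 in the strain that lacked both genes.

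AAD4 followed a like order on the probe set 1771716_s_at, here AAD4 (_s_at). It read 11.91 and 12.22 in snf1Δ cells, 11.60 and 11.95 in rad23Δ cells, 11.02 and 11.05 in snf1Δ rad23Δ cells, 10.65 and 10.90 in mig3Δ cells and 10.61 and 10.54 in rad4Δ cells, against 10.41 and 10.17 in WT cells. All 5 deletion strains lay above WT, by 1.78, 1.49, 0.75, 0.48 and 0.29 on the log2 scale in that order of strains. The other AAD4 probe set, AAD4 (_at), read 7.88 and 8.19 in snf1Δ cells against 5.96 and 6.09 in WT cells. Its other 4 strains were between 5.68 and 6.75, and its difference from WT was 2.01 in snf1Δ and 0.54 in rad23Δ. After quantile normalization of the deposited values the rad23Δ difference was -0.30, so its sign depends on the scaling.

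AAD14 read 8.41 and 8.79 in rad23Δ cells, 8.44 and 8.67 in snf1Δ cells, 8.04 and 8.26 in rad4Δ cells, 7.66 and 7.72 in mig3Δ cells and 7.50 and 7.82 in snf1Δ rad23Δ cells, against 7.92 and 7.72 in WT cells. The rad23Δ and snf1Δ arrays were above WT by 0.78 and 0.73, the rad4Δ arrays by 0.33, and the double deletion strain overlapped WT with a difference of -0.16.

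AAD3 ran the other way. AAD3 (_s_at) read 8.02 and 8.15 in snf1Δ cells, 8.66 and 8.73 in snf1Δ rad23Δ cells, 8.86 and 8.88 in rad23Δ cells, 8.97 and 9.26 in mig3Δ cells and 9.83 and 9.73 in rad4Δ cells, against 8.98 and 9.11 in WT cells. Its arrays were below WT in snf1Δ, snf1Δ rad23Δ and rad23Δ and above WT in rad4Δ, with differences of -0.96, -0.35, -0.17 and 0.74. AAD3 (_at) differed by -1.19, -0.89, -1.81 and 1.48 in the same 4 strains, and AAD3 (_x_at) by -1.05, -0.34, -0.36 and 1.08. The 3 probe sets had the same sign in each of these strains, and only AAD3 (_x_at) in rad23Δ overlapped WT.

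Over the 8 probe sets and 5 strains, 29 of the 40 differences from WT were above 0. In snf1Δ, 5 probe sets had both arrays above WT and 3 below, where 36.6% of all 5380 tested probe sets were above and 44.8% below. In rad23Δ 5 were above and 2 below (36% and 43.7% of all tested), in snf1Δ rad23Δ 4 and 3 (29.1% and 41.9%), in mig3Δ 3 and 1 (21.3% and 36.9%), and in rad4Δ 6 and 0 (39% and 22.7%). The median difference of the 8 was 1.25 in snf1Δ, 0.66 in rad23Δ, 0.19 in snf1Δ rad23Δ, 0.23 in mig3Δ and 0.45 in rad4Δ, beside medians over all tested probe sets of -0.06, -0.07, -0.10, -0.07 and 0.06. These values chose the members, so nothing is read from the shares.

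**Figure D2:**
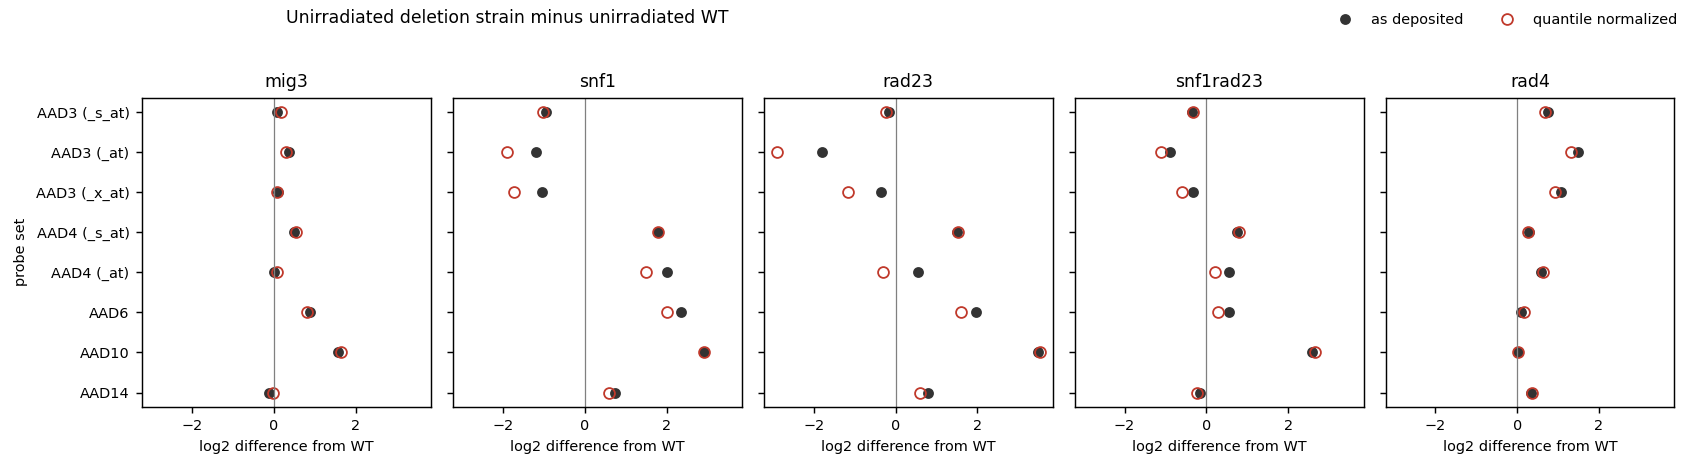
Each panel plots, for 1 deletion strain, the mean log2 difference of unirradiated cells from unirradiated WT (horizontal axis) for the 8 AAD probe sets (rows), with filled points for the deposited values and open points after quantile normalization. AAD10 stands at 3.48 in rad23 and 0.02 in rad4, the AAD3 probe sets lie left of 0 in snf1, rad23 and snf1rad23, and AAD4 (_at) in rad23 moves from 0.54 to -0.30 between the scalings.

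The dim end of the arrays moved with the strains. The 5th percentile of tested signal was 6.15 to 7.12 on the 20 arrays of the snf1Δ, rad23Δ and snf1Δ rad23Δ strains (median 6.68), against 5.59 to 6.51 on the other 21 arrays (median 5.98). AAD3 (_at), AAD3 (_x_at) and AAD4 (_at) stood at percentiles 4.5, 5.6 and 6.6 of mean signal, whereas AAD10 and AAD4 (_s_at) stood at percentiles 46.2 and 65.7. Quantile normalization moved 13 of the 40 differences by more than the replicate spread without changing their sign. It took AAD3 (_at) to -2.90 in rad23Δ and -1.90 in snf1Δ, and AAD3 (_x_at) to -1.17 in rad23Δ, -1.73 in snf1Δ and -0.60 in snf1Δ rad23Δ. In snf1Δ rad23Δ it took AAD6 to 0.29 and AAD4 (_at) to 0.21, against 0.54 for AAD6 and 0.56 for AAD4 (_at) as deposited. It left AAD10 at 3.52 in rad23Δ and 2.92 in snf1Δ. The part of the dim end in the other differences was not tested. The deleted genes read 2.74 or less in their own deletion strains, against at least 7.59 elsewhere, and the 6 MATa-specific genes checked read 10.55 to 14.58 on all 41 arrays. Of 4 genes specific to the other mating type, MF(ALPHA)1 and MF(ALPHA)2 read 1.98 to 4.82, while STE3 read 4.64 to 9.26 and SAG1 7.86 to 11.08. The WT arrays at 60 min stood apart, with 780 probe sets over 2-fold apart between replicates, followed by mig3Δ at 60 min (384), mig3Δ at 30 min (370) and snf1Δ rad23Δ at 60 min (282), against 5 to 130 in the other pairs.

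UV responses were not used to choose the members, though the unirradiated arrays enter both. Choosing genes for high levels in deletion strains tilts the responses of those strains towards falls and those of WT towards rises. It also tilts the span between strains towards narrowing after UV. The size of this tilt was not tested, so no link between starting level and response is read from the values below. Each was the mean of a strain's irradiated arrays minus that of its unirradiated arrays, tested with limma over all 5380 tested probe sets and called at a Benjamini-Hochberg adjusted p under 0.05. Of 120 responses (8 probe sets, 15 strain and time pairs), 26 were called higher, or 21.7%, where 14.7% of all responses were. Another 6 were called lower, or 5.0%, where 14.2% of all were. AAD4 gave 12 of the rises, 6 on each probe set, AAD14 gave 5, AAD6 gave 4, AAD10 gave 3 and AAD3 gave 2. The falls were 3 of AAD10 and 3 of AAD3.

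AAD10 had called rises after UV in WT and rad4Δ cells and called falls in snf1Δ and rad23Δ cells. In WT cells it read 9.94 and 10.00 at 30 min and 9.60 and 9.48 at 60 min, against 8.78 and 8.77 in unirradiated WT cells. It was higher at 30 min by 1.19 ± 0.29 (log2, SE, limma adjusted p = 0.00436), with 0.76 ± 0.29 at 60 min (adjusted p = 0.0512). At 15 min the WT arrays read 9.08 and 8.98, and the difference of 0.25 ± 0.29 was not called (adjusted p = 0.809). In rad4Δ cells AAD10 read 9.84 and 10.46 at 30 min and 9.64 and 9.93 at 60 min, against 8.50 and 9.10 in unirradiated rad4Δ cells. It was higher by 1.35 ± 0.29 at 30 min (limma adjusted p = 0.00113) and by 0.99 ± 0.29 at 60 min (adjusted p = 0.00672). The 60 min call was lost without unirradiated replicate 1 (0.69, adjusted p = 0.118) or 60 min replicate 2 (0.84, adjusted p = 0.0674).

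In snf1Δ cells AAD10 read 11.88 and 11.74 at 15 min, 10.90 and 10.73 at 30 min and 10.12 and 10.16 at 60 min, against 11.66 and 11.72 in unirradiated snf1Δ cells. Both later times lay below the unirradiated arrays. The limma differences were -0.88 ± 0.29 at 30 min (adjusted p = 0.0261) and -1.55 ± 0.29 at 60 min (adjusted p = 0.000207). The 30 min call was lost when any 1 of its 4 arrays, both snf1Δ replicates at either time, was left out (-0.96 to -0.79, adjusted p 0.0691 to 0.147), and the 60 min call was kept. In rad23Δ cells AAD10 read 11.39 and 11.67 at 30 min and 10.75 and 11.23 at 60 min, against 12.00 and 12.50 in unirradiated rad23Δ cells. It fell at 60 min by 1.27 ± 0.29 (log2, limma adjusted p = 0.00153), a call kept without any 1 array, and the 30 min difference was -0.72 ± 0.29 (adjusted p = 0.0669). The snf1Δ rad23Δ arrays read 11.31 and 11.33 at 30 min and 10.85 and 11.09 at 60 min, and the mig3Δ arrays 10.84 at 15 min, 10.06 and 10.74 at 30 min and 9.58 and 10.82 at 60 min. Neither strain had a called AAD10 response. The strain means of AAD10 spanned 3.47 log2 units before UV, 1.56 at 30 min and 1.45 at 60 min. The choice of members favours such a narrowing. Whether the responses differed between strains was not tested.

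**Figure D3:**
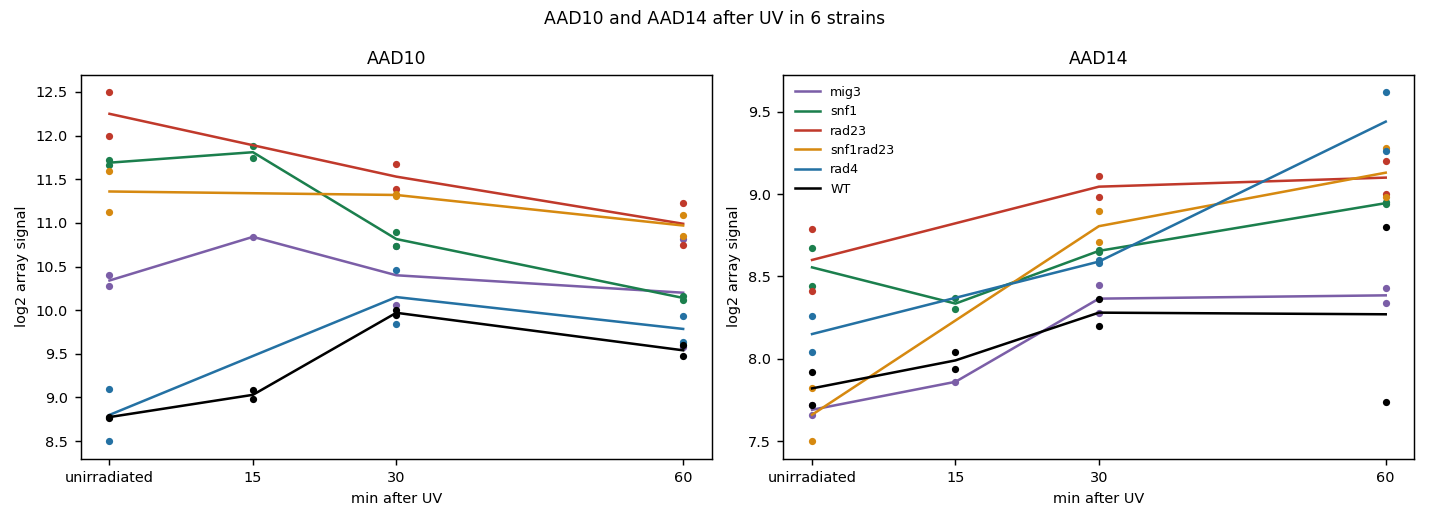
Log2 array signal (vertical axis) of AAD10 (left) and AAD14 (right) is plotted against minutes after UV (horizontal axis), with points for arrays and lines through group means in 6 colours for the strains. The strain means of AAD10 span 3.47 log2 units before UV and 1.45 at 60 min, and those of AAD14 end between 8.27 in WT and 9.44 in rad4.

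AAD14 rose in 3 strains and fell in none of its 15 tests. In snf1Δ rad23Δ cells it read 8.71 and 8.90 at 30 min and 9.28 and 8.98 at 60 min, against 7.50 and 7.82 in unirradiated snf1Δ rad23Δ cells. All irradiated arrays were above the unirradiated ones, by 1.15 ± 0.21 at 30 min (limma adjusted p = 0.000208) and 1.47 ± 0.21 at 60 min (adjusted p = 6.87e-06). In rad4Δ cells it read 8.58 and 8.60 at 30 min and 9.26 and 9.62 at 60 min, against 8.04 and 8.26 in unirradiated rad4Δ cells. It was higher at 60 min by 1.29 ± 0.21 (limma adjusted p = 2.38e-05), and between 30 and 60 min by 0.85 ± 0.21 (adjusted p = 0.00371). The second of these was lost without rad4Δ 60 min replicate 2 (0.67, adjusted p = 0.0764). In mig3Δ cells AAD14 read 8.28 and 8.45 at 30 min and 8.34 and 8.43 at 60 min, against 7.66 and 7.72 in unirradiated mig3Δ cells. These rises of 0.68 ± 0.21 (limma adjusted p = 0.0255) and 0.69 ± 0.21 (adjusted p = 0.0283) were calls that did not survive leaving out single arrays. At 30 min only leaving out 30 min replicate 1 kept the call, the other 3 omissions giving 0.59 to 0.71 (adjusted p 0.0943 to 0.131), and at 60 min leaving out any 1 of the 4 arrays gave 0.65 to 0.74 (adjusted p 0.0642 to 0.126). In WT cells AAD14 read 8.20 and 8.36 at 30 min and 7.74 and 8.80 at 60 min, against 7.92 and 7.72 in unirradiated WT cells, and no WT response was called.

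AAD4 rose in WT, rad4Δ and snf1Δ rad23Δ cells on AAD4 (_s_at). This probe set read 11.17 and 11.19 at 30 min and 10.77 and 11.42 at 60 min in WT cells, against 10.41 and 10.17 in unirradiated WT cells. The rise was 0.89 ± 0.24 at 30 min (limma adjusted p = 0.00901) and 0.80 ± 0.24 at 60 min (adjusted p = 0.0155). Array weights and a fit to the arrays of the contrast alone each lost the 60 min call. The 30 min call was lost without unirradiated replicate 2 (0.77), 30 min replicate 1 (0.90) or 30 min replicate 2 (0.88), and the 60 min call without unirradiated replicate 2 (0.68) or 60 min replicate 2 (0.48). In rad4Δ cells it read 11.67 and 11.21 at 30 min and 11.74 and 11.47 at 60 min, against 10.61 and 10.54 in unirradiated rad4Δ cells. In snf1Δ rad23Δ cells it read 11.72 and 12.14 at 30 min and 11.99 and 12.10 at 60 min, against 11.02 and 11.05 in unirradiated snf1Δ rad23Δ cells. At 60 min the rise was 1.03 ± 0.24 in rad4Δ (limma adjusted p = 0.00112) and 1.01 ± 0.24 in snf1Δ rad23Δ (adjusted p = 0.00151), both kept without any 1 array. At 30 min it was 0.87 ± 0.24 in rad4Δ (adjusted p = 0.00858) and 0.89 ± 0.24 in snf1Δ rad23Δ (adjusted p = 0.0061). The rad4Δ call at 30 min was lost without unirradiated replicate 2 (0.84) or 30 min replicate 1 (0.63), and the snf1Δ rad23Δ call without 30 min replicate 2 (0.68).

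AAD4 (_at) had called rises in 4 strains, the largest at 60 min in rad4Δ cells, with 8.14 and 8.04 against 6.44 and 6.75 in unirradiated rad4Δ cells. That rise was 1.49 ± 0.27 (limma adjusted p = 7.19e-05) and was kept without any 1 array. The other 5 ranged from 0.87 to 1.07, at 30 min in mig3Δ, rad23Δ, rad4Δ and snf1Δ rad23Δ and at 60 min in snf1Δ rad23Δ, and each lost its call without at least 1 array. At 30 min these arrays were unirradiated replicate 1 (0.51) and both 30 min replicates (0.78 and 0.96) in mig3Δ, both unirradiated replicates (0.94 and 0.79) and 30 min replicate 2 (0.42) in rad23Δ, and unirradiated replicate 1 (0.83) and 30 min replicate 1 (0.88) in rad4Δ. In snf1Δ rad23Δ they were 30 min replicate 2 (0.87) and 60 min replicate 2 (0.67). In snf1Δ cells, where AAD4 (_at) read 7.88 and 8.19 before UV, it read 8.32 and 8.39 at 30 min and 7.55 and 7.59 at 60 min, and no response was called.

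AAD6 read 8.07 and 8.17 at 30 min and 7.46 and 8.72 at 60 min in WT cells, against 6.93 and 6.70 in unirradiated WT cells. The WT rises of 1.30 ± 0.44 (limma adjusted p = 0.0312) and 1.27 ± 0.44 (adjusted p = 0.0308) rested on few arrays and on the processing. Quantile normalization lost the 30 min call. Array weights and a fit to the arrays of the contrast alone each lost the 60 min call. The 30 min call was lost when any 1 of its 4 arrays was left out (1.19 to 1.42, adjusted p 0.0725 to 0.159), and the 60 min call without unirradiated replicate 1 (1.39), unirradiated replicate 2 (1.16) or 60 min replicate 2 (0.64). In rad4Δ cells AAD6 read 8.64 and 7.31 at 30 min and 9.05 and 8.17 at 60 min, against 7.22 and 6.59 in unirradiated rad4Δ cells, and at 60 min it was higher by 1.70 ± 0.44 (limma adjusted p = 0.00224). Without rad4Δ 60 min replicate 1 this was 1.26 (adjusted p = 0.0521). In snf1Δ rad23Δ cells it read 8.98 and 8.24 at 60 min against 7.04 and 7.67 in unirradiated cells, a rise of 1.26 ± 0.44 (limma adjusted p = 0.019) that lost its call without unirradiated replicate 1 (0.95) or 60 min replicate 1 (0.89). No AAD6 response was called in snf1Δ, rad23Δ or mig3Δ cells.

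The AAD3 probe sets disagreed after UV. In snf1Δ rad23Δ cells at 60 min AAD3 (_at) read 4.25 and 4.04 and AAD3 (_x_at) 5.35 and 5.18, against 5.52 and 5.33 for AAD3 (_at) and 6.41 and 6.66 for AAD3 (_x_at) in unirradiated cells. Both fell by 1.27 on the log2 scale (limma adjusted p = 0.00709 and 0.000265), while AAD3 (_s_at) differed by -0.06 ± 0.25 (adjusted p = 0.865), with 8.36 and 8.92 against 8.66 and 8.73 in unirradiated cells. With array weights the AAD3 (_at) call was lost (limma adjusted p = 0.192) and that of AAD3 (_x_at) kept. In rad23Δ cells AAD3 (_at) read 6.50 and 6.61 at 30 min and 5.05 and 6.28 at 60 min, against 4.88 and 4.12 in unirradiated rad23Δ cells. It was higher by 2.05 ± 0.38 at 30 min (limma adjusted p = 0.000346) and by 1.16 ± 0.38 at 60 min (adjusted p = 0.0163). The 60 min value was 0.24 after quantile normalization, 0.78 without unirradiated replicate 2 and 0.54 without 60 min replicate 2, and the call was lost each time. In rad23Δ at 30 min AAD3 (_s_at) and AAD3 (_x_at) differed by 0.60 and 0.65 and were not called (limma adjusted p = 0.0721 and 0.0572). The unirradiated rad23Δ values of AAD3 (_at) lay below the 5th percentile of tested signal on those arrays, 6.72 to 6.84. In rad4Δ cells at 60 min AAD3 (_x_at) read 7.15 and 7.55 against 7.88 and 8.03 in unirradiated rad4Δ cells. The call of this fall of 0.61 (limma adjusted p = 0.0478) was lost without either unirradiated replicate (-0.68 and -0.53) or without 60 min replicate 1 (-0.41). Quantile normalization, median centring and an intensity trend each lost it too.

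**Figure D4:**
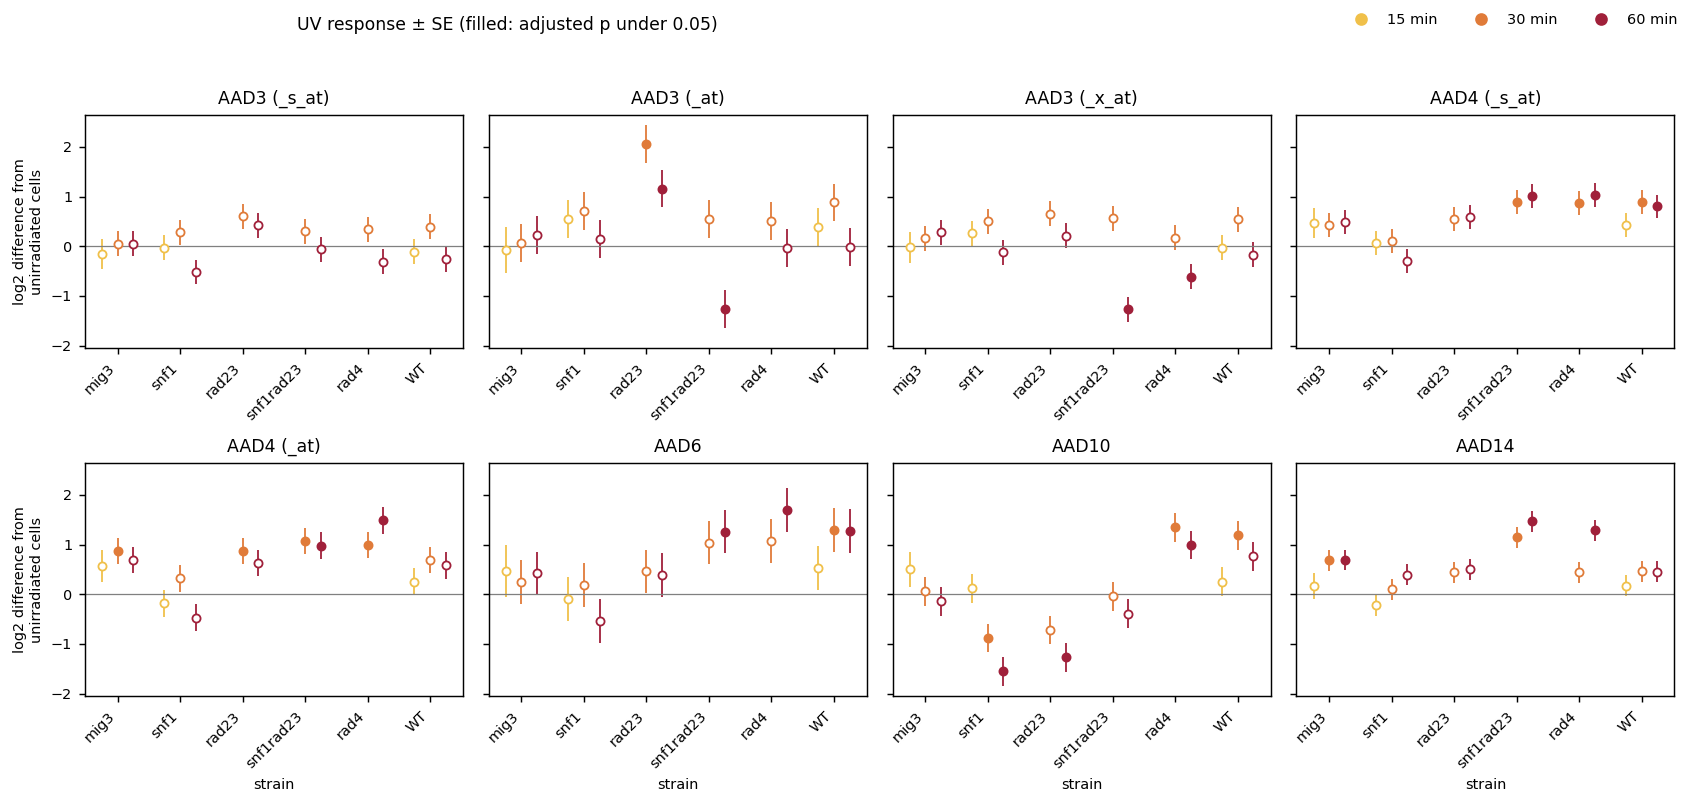
Each panel plots 1 AAD probe set as the log2 difference of irradiated from unirradiated cells of the same strain (vertical axis) by strain (horizontal axis), with colours for time, bars for ± SE of the limma fit and filled points for an adjusted p under 0.05. AAD10 lies at 1.35 in rad4 and 1.19 in WT at 30 min and at -1.55 in snf1 at 60 min, and AAD14 reaches 1.47 in snf1rad23 at 60 min.

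By strain and time, the share of members called was above that of all tested probe sets in some comparisons and below it in others. At 60 min 5 of 8 rose and 1 fell in rad4Δ cells, where 26.9% of all tested rose and 26.9% fell. At that time 4 rose and 2 fell in snf1Δ rad23Δ (27.2% and 25.6% of all tested), 1 rose and 1 fell in rad23Δ (23.8% and 19.3%), 0 rose and 1 fell in snf1Δ (22.4% and 21%), 1 rose and 0 fell in mig3Δ (10.3% and 6.75%), and 2 rose and 0 fell in WT (12.1% and 18.5%). At 30 min no member fell except AAD10 in snf1Δ. There 3 rose in rad4Δ (14.5% of all tested rose and 18% fell), 3 in snf1Δ rad23Δ (19.4% and 16.1%), 2 in rad23Δ (15.4% and 13.1%), 0 in snf1Δ (15.7% and 15.3%), 2 in mig3Δ (14.1% and 9.44%) and 3 in WT (12.6% and 12.6%). At 15 min no member was called by limma in snf1Δ (3.81% of all tested rose and 6.06% fell), mig3Δ (0.26% and 0.483%) or WT (1.32% and 4.59%), and 0 had an unadjusted p under 0.05.

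Between 30 and 60 min the members fell more often than they rose, and AAD3 gave 6 of the 7 falls. Of 48 tests 7 were called lower (14.6%, near the 10.5% of all) and 1 higher (2.08%, where 8.68% of all were). These counts are not read as a trait of the family. In snf1Δ rad23Δ cells AAD3 (_at) read 4.25 and 4.04 at 60 min against 5.64 and 6.30 at 30 min, and AAD3 (_x_at) 5.35 and 5.18 against 7.12 and 7.07. AAD3 (_x_at) fell by 1.83 ± 0.25 (limma adjusted p = 4.68e-05), a call kept under every alternative tried. AAD3 (_at) fell by 1.82 ± 0.38 (adjusted p = 0.00195), a call lost with array weights (adjusted p = 0.13) and in a fit to these arrays alone (adjusted p = 0.0768). The brighter AAD3 (_s_at) differed by -0.36 ± 0.25 and was not called (limma adjusted p = 0.316). At 60 min AAD3 (_at) and AAD3 (_x_at) both read below the 5th percentile of tested signal on those arrays, 6.43 to 6.70. AAD3 (_s_at) in snf1Δ and rad4Δ, AAD3 (_x_at) in rad4Δ and WT, and AAD4 (_at) in snf1Δ fell by 0.65 to 0.80, and each of these 5 calls was lost without at least 1 of its arrays. The values where lost were -0.86 to -0.52, without any 1 of the 4 arrays for AAD3 (_s_at) in rad4Δ and AAD4 (_at) in snf1Δ. For AAD3 (_s_at) in snf1Δ they were without either 30 min replicate or 60 min replicate 1, for AAD3 (_x_at) in rad4Δ without 30 min replicate 2 or 60 min replicate 1, and for AAD3 (_x_at) in WT without either 30 min replicate or 60 min replicate 2. Between these times 0 members rose and 2 fell in snf1Δ (12% and 12.3% of all tested), 0 and 2 in snf1Δ rad23Δ (8.4% and 11.6%), 1 and 2 in rad4Δ (16.5% and 16.5%) and 0 and 1 in WT (11.7% and 16.4%). In rad23Δ none was called by limma (3.55% and 5.93% of all tested), with 1 at an unadjusted p under 0.05, and in mig3Δ none (0% and 0%), with 0 at an unadjusted p under 0.05.

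Across the 21 group means AAD4 (_s_at) and AAD6 varied most alike, with a Pearson r of 0.95, and the AAD4 probe sets had 0.80. AAD4 (_s_at) had 0.75 with AAD10 and 0.76 with AAD14, while AAD10 and AAD14 had 0.27. The 3 AAD3 probe sets had 0.74 to 0.90 among themselves and -0.61 to -0.02 with the other members. These are descriptions over groups that share arrays, strains and the choice of members, and probes that bind several AAD transcripts could enter both values of a pair, which was not tested.

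**Figure D5:**
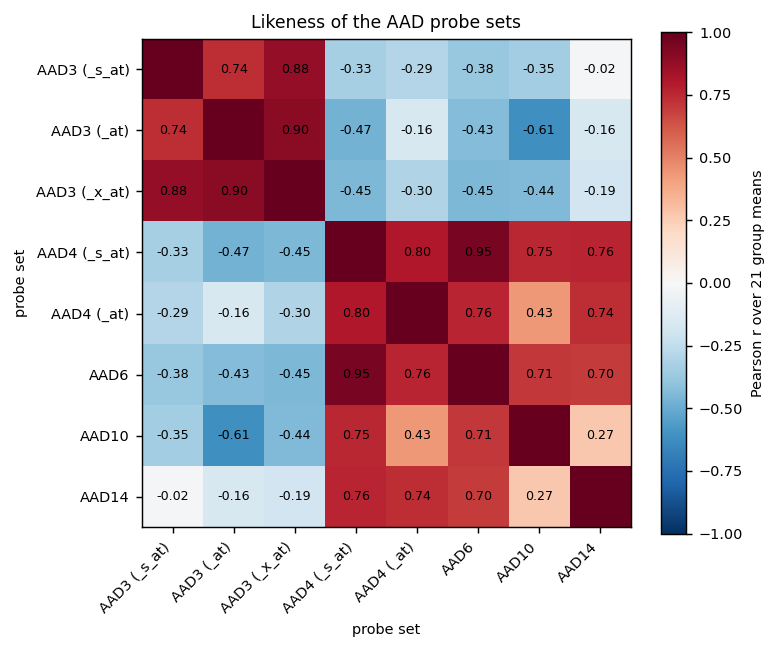
The matrix gives Pearson r (colour scale and printed value) between each pair of AAD probe sets (both axes) over the 21 group means of log2 signal. The 3 AAD3 probe sets form 1 block of 0.74 to 0.90, AAD4 (_s_at) and AAD6 reach 0.95, and AAD10 with AAD14 has 0.27.

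Outside the family, the gene most like AAD10 over the 21 group means was GPG1, a G-protein subunit (r = 0.93), followed by YCR099C (0.92) and BNA6, an enzyme of NAD synthesis (0.91). Those most like AAD14 were CTL1, an RNA triphosphatase, SPS1, a sporulation kinase, and SOD2, the mitochondrial superoxide dismutase, all at 0.92. AAD6 was nearest to ATP4 (0.89), a subunit of the ATP synthase, QCR8 (0.88), a subunit of the cytochrome bc1 complex, and UGA2 (0.87), a succinate semialdehyde dehydrogenase. AAD4 (_s_at) was nearest to YOL162W, SNF8 and ATP4 (0.92 each), and AAD4 (_at) to DAL7 (0.91), YMR090W (0.91) and MET32 (0.90). AAD3 (_at) was nearest to TMA22, RPS18A and RPS9B (0.92 each), AAD3 (_x_at) to RPL6A (0.86), RPL21B (0.86) and RPL13B (0.85), and AAD3 (_s_at) to ALG5 (0.87), LTP1 (0.86) and VMA21 (0.85). RPS and RPL genes encode ribosomal proteins. Over the 5332 genes compared, the median r was -0.08 to 0.07 and the 95th percentile 0.63 to 0.75. An r over 0.90 was reached by 0 genes for AAD6 and by 10 for AAD4 (_s_at). The named genes are the highest of all those compared, a choice that favours a high r. Of the 24 genes, 9 were again in the top 3 by Spearman correlation and 15 over single arrays.

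Genes beside the AAD genes were compared in unirradiated cells, taking up to 3 on each side, 22 in all. Only genes with a tested probe set were taken. Those of AAD10 all lay before it in chromosome order and those of AAD14 all after it, while AAD6 had genes on both sides. Counts of different members thus cover different flanks. In rad23Δ cells 14 rose and 3 fell (22.2% and 25.4% of all tested), in snf1Δ cells 13 and 2 (21.6% and 23.6%), and in snf1Δ rad23Δ cells 10 and 3 (17.3% and 21.4%). In mig3Δ cells 1 rose and 2 fell (3.27% and 5.04%). In rad4Δ cells none was called by limma, with 3 at an unadjusted p under 0.05 (2.75% and 4% of all tested were called). Their median difference from WT was 1.14 in rad23Δ, 0.90 in snf1Δ, 0.62 in snf1Δ rad23Δ, -0.06 in mig3Δ and 0.17 in rad4Δ. The genes beside AAD6 rose in 6 of 6 cases in rad23Δ, 5 in snf1Δ and 4 in snf1Δ rad23Δ, where 1 fell. The 3 beside AAD10 rose in both rad23Δ and snf1Δ. Of the 6 beside AAD4, 3 rose and 1 fell in both rad23Δ and snf1Δ. Of the 4 beside AAD3, 2 rose in rad23Δ and 1 in snf1Δ. Of the 3 beside AAD14 none rose and 2 fell in rad23Δ, 1 rose and 1 fell in snf1Δ, and 1 rose and 2 fell in snf1Δ rad23Δ. DAK2, a dihydroxyacetone kinase beside AAD6, was higher in snf1Δ by 6.23 ± 0.53 (limma adjusted p = 5.17e-09) and in rad23Δ by 4.63 ± 0.53 (adjusted p = 4.09e-07). YJR154W, beside AAD10, was higher by 3.25 ± 0.36 in rad23Δ (limma adjusted p = 2.43e-07), 2.77 ± 0.36 in snf1Δ (adjusted p = 2.04e-06) and 1.66 ± 0.36 in mig3Δ (adjusted p = 0.0059). DDI3, a cyanamide hydratase gene with a near-identical copy, DDI2, was higher in snf1Δ by 4.78 ± 0.42 (limma adjusted p = 6.31e-09), and the signals of the copies may be shared. Median differences over the 5 deletion strains were 4.63 for DAK2, 2.63 for YJR154W and 2.03 for DDI3. Strains not named here for these genes were thus also higher.

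Among genes regulated by Yap1, 22 were tested. In snf1Δ cells 9 rose and 3 fell (21.6% and 23.6% of all tested), and in rad23Δ 8 and 3 (22.2% and 25.4%). In snf1Δ rad23Δ cells 6 rose and 6 fell (17.3% and 21.4%), in rad4Δ 4 and 0 (2.75% and 4%) and in mig3Δ 3 and 0 (3.27% and 5.04%). Their medians were 0.19, 0.08, -0.14, 0.17 and 0.03 in that order. OYE3, an NADPH oxidoreductase, was higher in snf1Δ by 2.94 ± 0.32 (limma adjusted p = 1.34e-07), in rad23Δ by 2.68 ± 0.32 (adjusted p = 5.11e-07), in snf1Δ rad23Δ by 1.83 ± 0.32 (adjusted p = 9.6e-05) and in mig3Δ by 1.15 ± 0.32 (adjusted p = 0.0252). SRX1, which reduces oxidised peroxiredoxin, was higher in rad23Δ by 3.03 ± 0.73 (limma adjusted p = 0.00158). Its median difference over the 5 deletion strains was 2.41, so rad23Δ was not the only strain with a higher value. Without unirradiated WT replicate 2, the number of Yap1 rises over the 5 strains was 18, against 30 with it.

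Of 6 other aldo-keto reductases, 5 rose and 0 fell in snf1Δ (21.6% and 23.6% of all tested), 3 and 1 in rad23Δ (22.2% and 25.4%), 2 and 1 in snf1Δ rad23Δ (17.3% and 21.4%) and 1 and 0 in rad4Δ (2.75% and 4%). In mig3Δ none was called by limma (3.27% and 5.04% of all tested), with 1 at an unadjusted p under 0.05. GCY1, a glycerol dehydrogenase, was higher by 2.82 ± 0.37 in rad23Δ (limma adjusted p = 2.36e-06), 2.55 ± 0.37 in snf1Δ (adjusted p = 7.99e-06) and 1.44 ± 0.37 in snf1Δ rad23Δ (adjusted p = 0.0039). YPL088W, a putative aryl-alcohol dehydrogenase outside the members, was higher in snf1Δ by 1.87 ± 0.27 (limma adjusted p = 7.36e-06) and in snf1Δ rad23Δ by 1.43 ± 0.27 (adjusted p = 0.000257). Its difference was -0.02 ± 0.27 in rad23Δ (limma adjusted p = 0.96), -0.20 ± 0.27 in mig3Δ (adjusted p = 0.746) and -0.63 ± 0.27 in rad4Δ (adjusted p = 0.189), and 1 of its 5 differences was called lower with array weights. It was the 1 tested of 3 listed homologs.

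Of 10 alcohol dehydrogenase genes 4 rose and 0 fell in rad23Δ (22.2% and 25.4% of all tested), 4 rose and 2 fell in snf1Δ rad23Δ (17.3% and 21.4%), and 2 rose and 1 fell in snf1Δ (21.6% and 23.6%), the snf1Δ rises being near the share of all tested. Without unirradiated WT replicate 2 the rises over the 5 strains numbered 6, against 10 with it. In rad4Δ (2.75% and 4% of all tested) and mig3Δ (3.27% and 5.04%) none was called by limma, with 2 and 0 at an unadjusted p under 0.05. ADH2, the glucose-repressed alcohol dehydrogenase, was higher in rad23Δ by 5.94 ± 0.46 (limma adjusted p = 1.03e-09), against 0.80 ± 0.46 in snf1Δ (adjusted p = 0.167). Its median difference over the 5 deletion strains was 0.36, below the medians of BDH2 (1.39) and ADH5 (0.70). Of 7 genes of aromatic amino acid breakdown, 2 rose in each of snf1Δ (21.6% of all tested), rad23Δ (22.2%) and snf1Δ rad23Δ (17.3%). In rad23Δ 1 fell (25.4% of all tested). The fall was lost without either unirradiated replicate of rad23Δ or of WT. In mig3Δ (3.27% and 5.04% of all tested) and rad4Δ (2.75% and 4%) none was called by limma, with 1 and 0 at an unadjusted p under 0.05. PDC6, a minor pyruvate decarboxylase, was higher by 3.91 ± 0.52 in rad23Δ (limma adjusted p = 2.97e-06), and ARO80, the activator of aromatic amino acid catabolism, by 1.79 ± 0.23 in snf1Δ (adjusted p = 1.35e-06). Over the 5 deletion strains the median difference was 2.27 for PDC6 and 0.17 for ARO80, so PDC6 was higher in other strains too.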

How the data were processed

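The deposited values are log2 array signal, which the authors made with GCRMA 2.10.0 in R 2.6.2, per the submitters' processing notes; the genome build is not given in the sources used here. They were used without further scaling. Of 10928 probe sets, 5498 matched a budding yeast gene through the platform annotation and the R64 gene table, and 5380 (5337 genes) reached 4 on at least 2 arrays and were tested, which left out 118. Strain, time and replicate came from the sample labels. Group means (21 strain and time groups) were estimated together from the 41 arrays by limma 3.58.1 under R 4.3.3 (residual degrees of freedom 20, prior 2.86), and mig3Δ at 15 min, with 1 array, was assumed to vary like the others. Each contrast's p-values received the Benjamini-Hochberg adjustment across the 5380 probe sets. They measure only the spread between these samples. Precision is limited by the 2 arrays of a group. SE is that of the fit.

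Background is each array's 95th percentile of the listed probe sets outside budding yeast. Named are every member probe set, the deleted genes, for each member the 3 genes with the highest Pearson r, and, from each list, members among the 3 with the largest median difference over the 5 deletion strains. Genes with several tested probe sets are represented by the brightest. The members and lists were chosen with earlier results of these data known. Alternatives tried were the filter, quantile normalization, median centring, an intensity trend, array weights, a replicate block, the arrays of 1 contrast alone, and leaving out each array. Sequences are not shown.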

Additional observations from a re-analysis of the deposited data

Results flagged for a closer look

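The UV response of AAD10 ran in opposite directions in different strains. At 30 min the log2 response was 1.35 in rad4Δ and 1.19 in WT but -0.88 in snf1Δ, and at 60 min it was 0.99 in rad4Δ but -1.55 in snf1Δ and -1.27 in rad23Δ. For AAD3 (_at) at 60 min it was 1.16 in rad23Δ but -1.27 in snf1Δ rad23Δ. In each case all arrays of 1 strain moved one way and all arrays of the other the opposite way, and the difference between strains was not tested. For AAD10 the choice of members by unirradiated levels favours rises in WT and falls in deletion strains where it was high. The calls at -0.88 (any 1 of its 4 arrays left out), 0.99 (2 single arrays), 1.16 (2 single arrays, quantile normalization, or its arrays alone) and the -1.27 of AAD3 (_at) (array weights) were lost under those alternatives.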

How the results depend on the processing

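Of the 32 called UV responses, 12 were called under every alternative, among them AAD10 at 60 min in snf1Δ and rad23Δ and at 30 min in rad4Δ and WT, and AAD14 at 60 min in rad4Δ. Of the 8 calls between 30 and 60 min, 1 was. The mig3Δ rises of AAD14 and AAD4 (_at) were each lost with quantile normalization, array weights and their arrays alone. Array weights lost AAD4 (_at) and AAD6 at 60 min in snf1Δ rad23Δ, and its arrays alone lost AAD4 (_at) at 30 min in rad23Δ. Between 30 and 60 min, quantile normalization lost AAD4 (_at) in snf1Δ, AAD3 (_s_at) in rad4Δ and AAD3 (_x_at) in WT. Against 1 rise between 30 and 60 min, array weights gave 2 and the arrays of the contrast alone 3. For deletion strains against WT, array weights gave 1 fall among AAD homologs (0 as reported) and 5 among alcohol dehydrogenases (3 as reported), and the arrays of the contrast alone gave 1 among alcohol dehydrogenases and 0 among aldo-keto reductases (2 as reported). Of the 24 genes most like a member, 9 were kept by Spearman correlation and 15 over all arrays. AAD4 (_at) in rad23Δ minus WT was -0.30 after quantile normalization (0.54 as deposited). AAD14 in WT between 30 and 60 min was 0.51 (limma adjusted p = 0.0255) without WT 60 min replicate 1 and -0.54 (adjusted p = 0.029) without replicate 2, against -0.01. The causes were not tested.

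Leaving out 1 array gave 23 to 36 UV rises and 4 to 7 falls, 0 to 2 rises and 4 to 10 falls between 30 and 60 min, and 26 to 30 deletion differences above 0. Over the 5 strains it gave, higher and lower, 32 to 40 and 9 to 12 neighbours, 18 to 34 and 9 to 15 Yap1 targets, 8 to 13 and 0 to 2 aldo-keto reductases, 6 to 11 and 3 to 4 alcohol dehydrogenases, 4 to 9 and 0 to 1 aromatic catabolism genes, and 2 and 0 AAD homologs. Nothing in the labels says that a replicate number pairs arrays across times, and replicate differences correlated by -0.06 to 0.71 with those of unirradiated cells. With the replicate block 33 UV responses rose and 8 fell, and between the later times 1 rose and 8 fell; the block added 10 calls and lost 0. Those added were AAD10 in rad23Δ at 30 min and WT at 60 min, AAD14 in rad23Δ at 60 min, AAD4 (_at) in mig3Δ and rad23Δ at 60 min and WT at 30 min, AAD3 (_s_at) in rad23Δ at 30 min, snf1Δ at 60 min and WT between 30 and 60 min, and AAD3 (_x_at) in rad23Δ at 30 min. Over all tested probe sets, 1647 were called in WT at 60 min, but 248 with array weights and 0 by limma on those arrays alone (947 at an unadjusted p under 0.05).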
